A study of Rattus norvegicus with 2 samples.

Results

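Tuft cells of the rat proximal jejunum were described from 200 of 20285 deposited cell barcodes, 93 of 12033 in rat 1 and 107 of 8252 in rat 2. A barcode was counted as tuft when its total exceeded 1000 unique molecular identifiers (UMIs, each standing for 1 captured transcript), mitochondrial genes made up no more than 40% of that total, 3 or more of 8 tuft markers had a UMI, and Cd3e, Cd3g and Best4 had none. The 8 markers were Trpm5, Avil, Sh2d6, Alox5ap, Rgs13, Pou2f3, Dclk1 and Il25, and Sh2d6 was not analysed here, so 7 could be counted. Because these values chose the barcodes, levels of the 8 markers, Cd3e, Cd3g, Best4 and Epcam are given as descriptions and were left out of every test.

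Tuft cells are rare chemosensory cells of the intestinal epithelium with a brush of long apical microvilli. They sense luminal metabolites through G protein-coupled receptors and a taste-type cascade in which the G protein alpha subunit gustducin leads to calcium release and opening of the cation channel TRPM5. In response to parasites they release the cytokine IL-25 and cysteinyl leukotrienes, and the transcription factor POU2F3 is required for their formation.

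The study profiled epithelium of the proximal jejunum from 2 adult male Sprague Dawley rats, aged 6 to 8 weeks, weighing 180 to 200 g and fasted overnight, with 1 droplet-based 3′ library per rat. No treatment or genetic change was applied and epithelium was released with EDTA and dispase. The libraries held 99986348 UMIs in rat 1 and 66469907 in rat 2. Every comparison therefore rests on 2 rats (n = 2), whose libraries shared 28 barcode sequences, 1 of them a tuft barcode.

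Tuft barcodes made up 0.995% of the 9345 barcodes of rat 1 that met the UMI and mitochondrial limits (exact 95% binomial interval 0.804 to 1.22), and 1.94% of 5523 in rat 2 (1.59 to 2.34). These intervals cover counting error only. Most tuft barcodes of rat 1 were shallow, with a median of 3562 UMIs (range 1019 to 29872), against 10690 in the other Epcam-positive barcodes of the same rat. In rat 2 the median tuft barcode had 6499 UMIs (1257 to 47932) against 7702. The study kept cells with more than 5000 UMIs, and 76 of 93 tuft barcodes in rat 1 (81.7%) and 34 of 107 in rat 2 (31.8%) lay at or below that floor. The median share of mitochondrial UMIs was 7.72% in rat 1 and 13.6% in rat 2. Epcam, the epithelial adhesion molecule, had a UMI in 92 of 93 and 105 of 107 tuft barcodes.

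**Figure D1:**
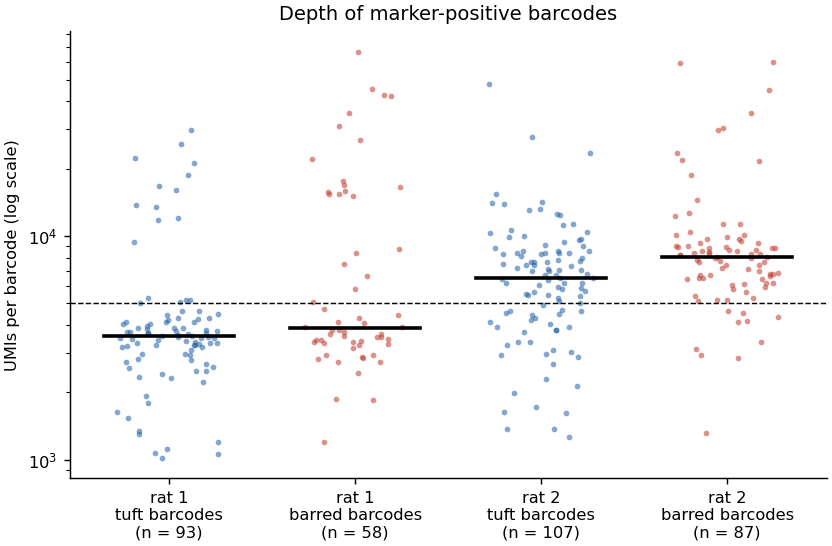
UMIs per barcode on a log axis for barcodes with 3 or more tuft markers, split into tuft barcodes (blue) and barcodes that Cd3e, Cd3g or Best4 barred (red), in each rat. Each point is 1 barcode, black bars are medians (3562 and 3867.5 in rat 1, 6499 and 8032 in rat 2), and the dashed line marks 5000 UMIs.

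Among the markers, Rgs13 (a regulator of G protein signalling), Avil (advillin, an actin-bundling protein of the tuft), Dclk1 (a microtubule-associated kinase) and Alox5ap (the partner of 5-lipoxygenase in leukotriene synthesis) carried most of the marker UMIs. Rgs13 had a median of 7 UMIs per tuft barcode in rat 1 (0 to 24) and 9 in rat 2 (0 to 42). Avil had a median of 4 (0 to 21) and 12 (1 to 43), Dclk1 of 3 (0 to 9) and 10 (0 to 34), and Alox5ap of 3 (0 to 16) and 5 (0 to 59). The other markers had fewer UMIs, most of all in rat 1. Pou2f3 had no UMI in 50 of 93 and 28 of 107 tuft barcodes, and Trpm5 none in 73 of 93 and 60 of 107. Il25 was found as 7 UMIs in rat 1 and 6 in rat 2.

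In rat 1, 13 tuft barcodes held exactly 3 markers, 35 held 4, 34 held 5, 9 held 6 and 2 held 7, and in rat 2 the numbers were 9, 12, 47, 38 and 1. Just outside the marker threshold, 6 barcodes of rat 1 and 17 of rat 2 held 2 markers and none of the barring genes. A UMI of Ltc4s, the leukotriene C4 synthase gene, which the rule did not use, was present in 2 of these 6 and 2 of these 17, and in 13 of the 13 and 7 of the 9 barcodes with 3 markers. The mitochondrial limit left out 1 further barcode in rat 1 and 21 in rat 2, from 43.8% and 40.8% upward, while the highest tuft barcodes inside it had 35.9% and 39.2%. The UMI floor left out 1 barcode in rat 1, at 774 UMIs, and 3 in rat 2, of which the highest had 815.

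Barring on Cd3g removed a large part of the marker-positive barcodes. Of the barcodes with 3 or more markers, 58 of 151 in rat 1 (38.4%) and 87 of 194 in rat 2 (44.8%) were barred, 57 and 84 of them by Cd3g, which encodes the gamma chain of the T cell receptor complex. Cd3e was present in 3 and 6, and Best4, a bestrophin channel of CFTR high expressers (CHEs), in 0 and 5. The barred barcodes carried tuft genes that the rule did not use. Ltc4s had a UMI in all 58 of them in rat 1 and in 97.7% in rat 2, and Gnat3, the gustducin alpha subunit, in 48.3% and 74.7%. In tuft barcodes Ltc4s had a UMI in 95.7% and 93.5%, and Gnat3 in 62.4% and 82.2%. In goblet barcodes, a class that should lack both genes, Ltc4s had a UMI in 1.87% and 3.15% and Gnat3 in none, at median depths of 7292 and 12438 UMIs. Thinned to 1000 UMIs per barcode, the shares for Ltc4s were 69.9% and 54.2% in tuft, 56.9% and 62.1% in barred, and 0.234% and 0.450% in goblet barcodes.

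The barred barcodes held Cd3g at 222 CPM (UMIs per 1000000 UMIs of the class) in rat 1 and 242 CPM in rat 2 (the rule chose them by it in most cases). Other T cell genes were unevenly present. Cd3d, the delta chain of the same complex, was at 0 of 603067 UMIs in rat 1, where 3 counts would be 4.97 CPM, and at 9.78 CPM in rat 2. Ccl5, a chemokine of cytotoxic T cells, had a UMI in 8 of 58 and 25 of 87 barred barcodes (24.9 and 137 CPM), and in 10 of 93 and 30 of 107 tuft barcodes (62.8 and 440 CPM). Gzma, a granzyme, had one in 5 of 58 and 22 of 87 barred barcodes (28.2 and 72.8 CPM), and in 8 of 93 and 18 of 107 tuft barcodes (35.6 and 297 CPM). In 1113 and 1720 T cell-like barcodes, chosen by 3 or more of Cd3d, Cd3e, Lck, Cd96 and Ptprc, Cd3g stood at 555 and 625 CPM, Cd3d at 544 and 479 CPM, Ccl5 at 6906 and 9621 CPM and Gzma at 3749 and 5809 CPM, at median depths of 1818 and 3492.5 UMIs. Among marker-positive barcodes Cd3g was present in 3 of 14 in rat 1 (21.4%) and 1 of 8 in rat 2 (12.5%) at 1000 to 2000 UMIs. Above 20000 UMIs it was present in 8 of 12 in each rat (66.7%). Between these depths the share did not rise at every step, as in rat 2 with 50.4% at 5000 to 10000 and 39.1% at 10000 to 20000 UMIs. A Cd3g UMI was also present in 23.4% and 6.10% of other Epcam-positive barcodes with no UMI of those 5 T cell genes, whose median depths were 11351.5 and 14354 UMIs. The source of these Cd3g UMIs was not tested.

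**Figure D2:**
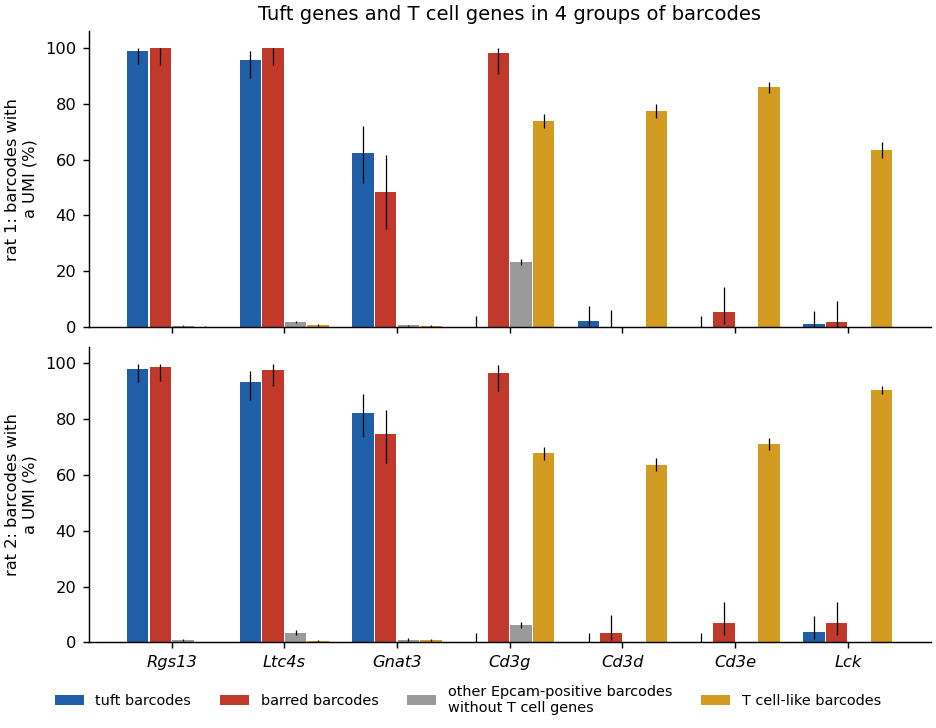
Share of barcodes with at least 1 UMI of tuft genes (Rgs13, Ltc4s, Gnat3) and T cell genes (Cd3g, Cd3d, Cd3e, Lck) in tuft barcodes, barred marker-positive barcodes, other Epcam-positive barcodes without T cell genes and T cell-like barcodes of each rat, with exact 95% binomial intervals. Barred barcodes stand with tuft barcodes for Ltc4s (all 58 and 97.7%), while the rule itself sets Rgs13 in part, puts Cd3g and Cd3e at 0 in tuft barcodes and makes Cd3g common in barred ones.

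No gene was called between barred and tuft barcodes among 6119 tested (0.0%; edgeR quasi-likelihood test on UMIs summed per rat, Benjamini-Hochberg adjusted p of at most 0.05). At an unadjusted p under 0.05 there were 64 genes, DESeq2 called 0, and 104 genes passed when the rat was a block. A p that misses the threshold does not show that both sets were alike. Gnat3 stood at 171 CPM (barred) and 676 CPM (tuft) in rat 1, and at 842 and 1159 CPM in rat 2. In rat 1 ribosomal protein genes made up 15.4% of barred and 6.99% of tuft UMIs, and goblet markers 0.600% and 0.135%. In rat 2 these were 3.75% and 3.07%, and 0.0415% and 0.145%. Cycling markers stood at 0.0708% and 0.0184% in rat 1, and at 0.0159% and 0.0161% in rat 2. CHE markers stood at 0.0416% and 0.103% in rat 1, and at 0.814% and 0.0726% in rat 2. With the barred barcodes counted in, marker-positive barcodes made up 1.62% of rat 1 (1.37 to 1.89) and 3.51% of rat 2 (3.04 to 4.03). This count includes the barcodes with Cd3e or Best4, and the share with only Cd3g allowed is given at the end.

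Against the other Epcam-positive barcodes, tuft barcodes showed higher levels of a small set of taste-type, leukotriene, transcription factor and adaptor genes. There were 8150 such barcodes in rat 1 and 3017 in rat 2. The test without a rat term called 105 of 11553 genes higher (0.909%) and 3 lower (0.026%). All 108 moved the same way in both rats, which a call from 2 sums per class makes likely beforehand. Because both classes came from the same animals, a fit with the rat as a block was also made, which called 887 genes higher (7.68%) and 1234 lower (10.7%). The lowest adjusted p without the block was 0.0415, close to the threshold of 0.05, and 0 genes passed when mitochondrial genes were left out of the tested genes, when tuft barcodes were limited to over 5000 UMIs, or without the tuft library of either rat. The barred barcodes, 58 in rat 1 and 86 in rat 2, belong to the other Epcam-positive barcodes under the rule. Without them, 245 of 11509 genes were called higher (2.13%) and 11 lower (0.0956%). This comparator was chosen after seeing the data. It leaves out barcodes picked by the rule's own markers, so the added calls follow in part from the selection.

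**Figure D3:**
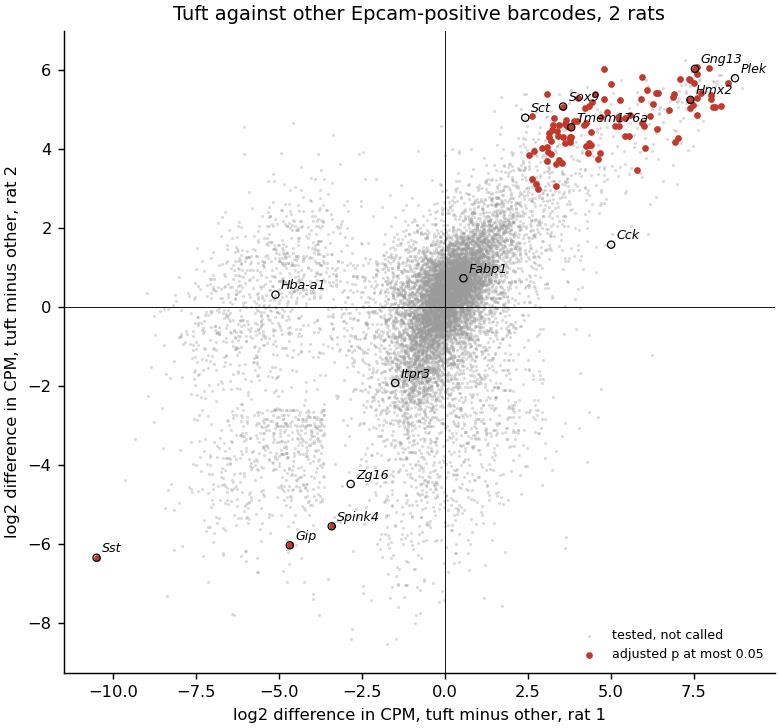
Difference in log2 CPM (prior count 2) between tuft and other Epcam-positive barcodes in rat 1 (x axis) and rat 2 (y axis) for 11553 tested genes, with the 108 called without a rat term in red and selected genes circled and named. The called genes lie in the corners where both rats move the same way, with 105 upper right and Spink4, Gip and Sst lower left, while Cck, Sct, Fabp1 and Itpr3 were not called.

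The share of these tuft transcripts that sat in the barred barcodes was large. Of the Gnat3 UMIs in other Epcam-positive barcodes, 103 of 146 in rat 1 and 766 of 791 in rat 2 were in barred barcodes. For Plek, which encodes the haematopoietic protein pleckstrin, these were 248 of 286 and 3986 of 4215. Leaving them out moved the log2 fold change of Gnat3 from 6.03 (adjusted p = 0.0760) to 10.36 (0.0017), and that of Plek from 5.66 (0.173) to 9.77 (0.0310). Counts of calls without the barred barcodes are given below for the main lists.

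Of 12 tested members of the taste-type cascade, 3 were called higher without the block, 9 higher and 1 lower with it, and 7 higher without the barred barcodes, with a median log2 fold change of 4.76 against -0.17 over all genes tested. Gng13, the G protein gamma subunit paired with gustducin, stood at 266 and 124 CPM in tuft barcodes of rats 1 and 2, against 1.38 and 1.81 CPM in the others (log2 fold change 6.64, standard error (SE) 0.66, adjusted p = 0.0415). Sucnr1, the receptor for the microbial metabolite succinate, stood at 18.8 and 20.3 CPM (log2 fold change 7.01, SE 0.99, adjusted p = 0.0415). Itpr2, a receptor that releases calcium from the endoplasmic reticulum, stood at 207 and 269 CPM against 8.47 and 19.9 CPM (3.75, SE 0.61, adjusted p = 0.0435).

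Gnat3 had a UMI in 58 of 93 tuft barcodes of rat 1 and 88 of 107 of rat 2, and in no goblet barcode of either rat (0 of 427, a count that allows up to 0.703%, and 0 of 222, up to 1.35%). Ffar3, a receptor for short-chain fatty acids, had 337 and 525 CPM against 1.00 and 8.89 CPM. Atp2a3, a calcium pump of the endoplasmic reticulum, had 990 and 2268 CPM against 32.7 and 86.1 CPM, and Rgs2, a regulator of G protein signalling, 163 and 430 CPM against 1.43 and 11.4 CPM. These 3 genes, Gnat3, Plcb2 and Gnai2 passed with the rat as a block (log2 fold changes from 2.89 for Gnai2 to 6.97 for Gnat3) and not without it (adjusted p from 0.0546 for Ffar3 to 0.129 for Gnai2). Without the barred barcodes Ffar3, Gnat3, Atp2a3 and Rgs2 also passed without the block (adjusted p from 0.00155 to 0.0172), and Plcb2 (0.0542) and Gnai2 (0.0951) did not. Plcb2, the phospholipase of the cascade in taste cells, had 12 UMIs in rat 1 and 2 in rat 2. Itpr3, the calcium-release receptor used in taste cells, was the member called lower with the block, at 10.5 and 10.2 CPM against 29.7 and 38.8 CPM (blocked log2 fold change -2.06, adjusted p = 5.1e-04). Gnb1 (log2 fold change -0.38) and Tas1r1 (-1.80) passed neither fit. Gnb3, Tas1r3, Calhm1 and Calhm3 had 0 UMIs in tuft barcodes of both rats, where 3 counts would be 6.28 CPM in rat 1 and 3.81 CPM in rat 2.

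Some genes for making leukotrienes and prostanoids were also higher, while the summed list was higher in rat 2 only. It made up 0.335% of tuft and 0.407% of other UMIs in rat 1, and 0.313% and 0.270% in rat 2. Of 10 tested members of the eicosanoid list, 2 were called higher without the block, 7 higher and 3 lower with it, and 7 higher without the barred barcodes (median log2 fold change 4.93). Ltc4s stood at 886 and 908 CPM against 5.29 and 27.4 CPM (5.43, SE 0.94, adjusted p = 0.0478). Pla2g4a, the cytosolic phospholipase that releases arachidonic acid, stood at 111 and 71.1 CPM (4.61, SE 0.69, adjusted p = 0.0415). The cyclooxygenase genes Ptgs1 (159 and 739 CPM) and Ptgs2 (54.4 and 133 CPM), the thromboxane synthase gene Tbxas1 (276 and 576 CPM), the prostaglandin D synthase gene Hpgds (35.6 and 34.3 CPM) and Alox5 (54.4 and 81.2 CPM), which encodes 5-lipoxygenase, passed with the block, with adjusted p from 0.0641 for Hpgds to 0.144 for Ptgs1 without it. Without the barred barcodes these 5 genes passed without the block (adjusted p from 0.00230 to 0.0214). Hpgd, which inactivates prostaglandins, and the microsomal glutathione transferase genes Mgst2 and Mgst3 were called lower with the block (log2 fold changes -2.40, -1.39 and -2.23).

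Of 8 tested type 2 and cytokine genes, 1 was called higher without the block, 3 higher and 1 lower with it. Chat, which makes acetylcholine, was found as 9 UMIs in 9 tuft barcodes of rat 1 and 17 UMIs in 17 of rat 2, and as 3 and 9 UMIs in all other Epcam-positive barcodes, each of these in a barred barcode (log2 fold change 7.07, SE 1.12, adjusted p = 0.0425). Il17rb, a subunit of the receptor for IL-25, stood at 207 and 458 CPM against 1.16 and 8.61 CPM (5.74, adjusted p = 0.0585 without the block). It passed with the block (6.29).

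Among 22 tested transcription factors, Sox9, Hmx2, Hmx3 and Prox1 were called higher without the block, and Gfi1b, Runx1, Spib, Ehf and Ascl2 joined them with it. Hmx2, a homeobox factor, stood at 155 and 156 CPM against 0.872 and 4.04 CPM (log2 fold change 5.66, SE 0.85, adjusted p = 0.0415), and its relative Hmx3 at 27.2 and 39.3 CPM (5.74, SE 0.92, adjusted p = 0.0425). Sox9, a factor of crypt and secretory cells, stood at 333 and 546 CPM against 28.1 and 16.1 CPM (4.04, SE 0.56, adjusted p = 0.0415). Prox1, a homeobox factor, stood at 71.2 and 35.5 CPM against 1.24 and 3.14 CPM (4.28, SE 0.73, adjusted p = 0.0469).

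Gfi1b, a zinc finger repressor known from blood cells, stood at 41.9 and 85.0 CPM (without the block 5.19, adjusted p = 0.0866), Runx1 at 56.5 and 168 CPM (4.69, 0.0885) and Spib, an Ets factor, at 314 and 883 CPM against 2.62 and 73.5 CPM (3.60, 0.262). Ehf had a log2 fold change of 2.29 and Ascl2, a stem cell factor, of 2.25, with adjusted p of 0.168 and 0.317. Atoh1, which drives secretory fate, the Notch target Hes1 and the goblet factor Spdef were called lower with the block (-2.22, -2.73 and -2.93) and not without it. The remaining tested factors passed neither fit, with log2 fold changes without the block of 1.02 for Cdx1, -0.79 for Cdx2, 0.74 for Elf3, 0.47 for Etv1, -2.05 for Gfi1, -0.33 for Hnf4a, 0.47 for Klf4, -0.14 for Klf5 and -0.48 for Pou2af1. Neurod1, an endocrine factor, had 0 UMIs in tuft barcodes of both rats. Meis1 also had 0 UMIs there and was not tested.

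Signalling genes best known from blood cells were also higher. Of 26 tested genes of the Src-family, phospholipase C and adaptor list, 5 were called higher without the block, 18 higher and 2 lower with it, and 15 higher without the barred barcodes (median log2 fold change 3.62). The 5 were Sh2d7 (log2 fold change 6.10), an adaptor, Bmx (5.78), a Tec-family kinase, Plcg2 (4.97), a phospholipase C, Ptpn18 (4.78), a phosphatase, and Inpp5j (3.98), an inositol phosphatase, with adjusted p of 0.0415 to 0.0435. Ptpn6, a phosphatase gene, stood at 835 and 1829 CPM against 38.4 and 116 CPM and passed with the block (3.93, against 3.77 and adjusted p = 0.0819 without it). Ptprc, the pan-leukocyte phosphatase CD45, and Skap1, a T cell adaptor, were the 2 called lower with the block. Ptprc had a UMI in 2 of 93 and 10 of 107 tuft barcodes.

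**Figure D4:**
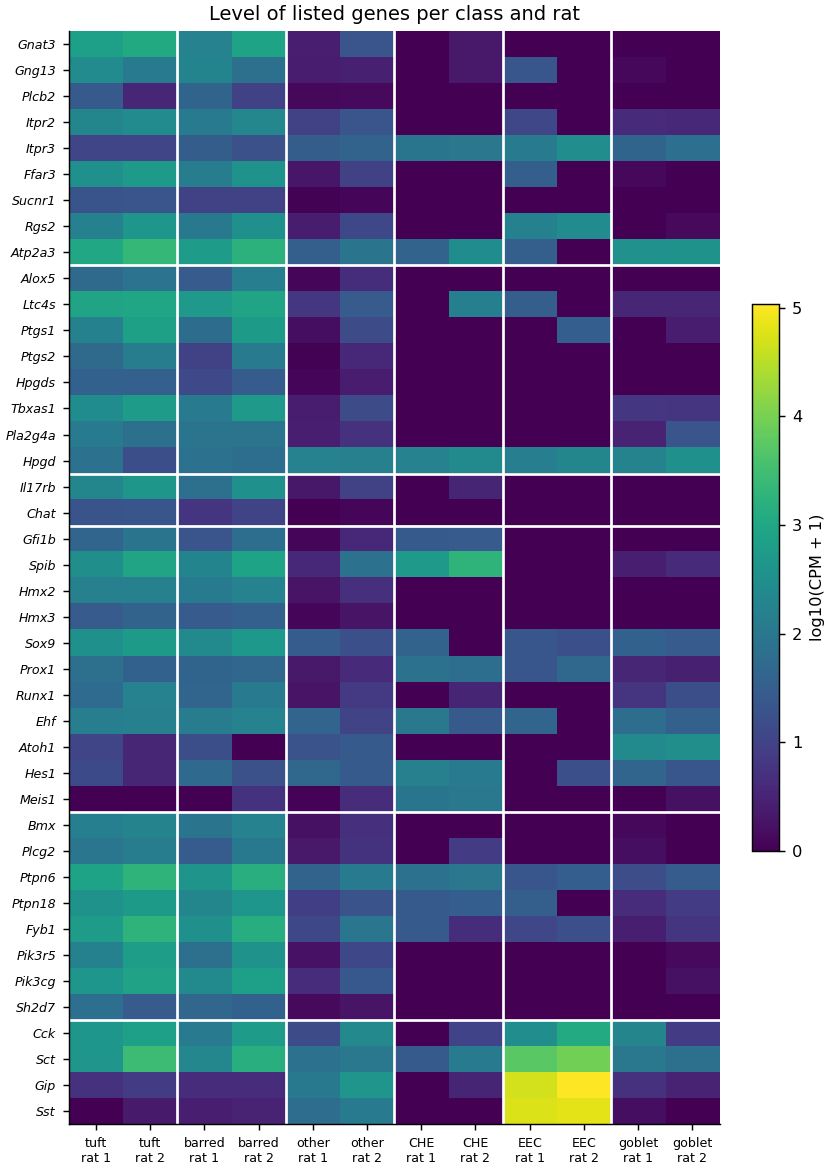
Level of listed genes as log10(CPM + 1) in tuft, barred, other Epcam-positive, CHE, enteroendocrine (EEC) and goblet barcodes of each rat, with 1 row per gene and 1 column per class and rat, and white lines between gene groups and classes. Gnat3, Ltc4s and Hmx2 are brighter in the tuft and barred than in the other Epcam-positive columns, Spib is bright in tuft, barred and CHE columns, Itpr3 is dimmer in tuft than in CHE, EEC and goblet columns, and Gip and Sst are bright in EEC columns.

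The cytoskeletal list was mixed. Of 22 tested members, 3 were called higher without the block, and 8 higher and 5 lower with it. Nebl (log2 fold change 5.91), a relative of nebulin that binds actin, and Tuba1a (4.59), an alpha tubulin, were among the 3. The keratin gene Krt18 stood at 7376 and 13738 CPM against 289 and 451 CPM (4.52, adjusted p = 0.0658 without the block), and passed with the block. Krt20, Krt19, Myo1a, Pls1 and Coro1a were called lower with the block, from -1.28 to -1.99.

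Of 38 tested genes listed for mouse tuft cells, 8 were called higher without the block, and 22 higher and 4 lower with it. The 8 were Mcub (5.79), Gprc5c (5.40), Pygl (4.62), Reep5 (4.51), Bcl2l14 (4.40), Tmem176a (3.87), Ccdc28b (3.67) and Sec14l1 (3.31), all at adjusted p of 0.0415 to 0.0469. Pygl is the liver-type glycogen phosphorylase, and Mcub a subunit of the mitochondrial calcium channel. Galk1, Acot7, Aldh2 and Tmem45b were called lower with the block, from -1.02 to -2.80. Cd24, a surface glycoprotein, was abundant, at 4376 and 10068 CPM, and passed with the block (3.12) and not without it (3.18, adjusted p = 0.127).

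Among genes on no list, the 15 with the largest increase had log2 fold changes from 5.42 to 6.76, and most were found in few barcodes. Mt4, a metallothionein, led with 17 UMIs in 8 tuft barcodes of rat 1 and 10 UMIs in 6 of rat 2 (6.76, SE 1.02, adjusted p = 0.0415), and 9 of the 17 UMIs came from 1 barcode. Adrb3, a beta adrenergic receptor, had 16 UMIs in 12 barcodes and 12 in 9 (6.54). Nrg1, an ErbB receptor ligand, had 5 UMIs in each rat (6.43). AABR07044460.2, a gene known only by a clone name, was the most abundant, at 743 and 659 CPM with a UMI in 67 of 93 and 93 of 107 tuft barcodes (6.23, SE 1.04, adjusted p = 0.0441).

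The other 11 were St6galnac2 (a sialyltransferase), Slc4a8 (a bicarbonate transporter), Rgs22, Ppic (a cyclophilin), Strip2, Adgrg6 (an adhesion receptor), Grasp, Kcnk12 (a potassium channel), Camp (cathelicidin, an antimicrobial peptide), Chi3l1 (a chitinase-like protein) and Acer2 (an alkaline ceramidase). The highest tuft level among these 11 was 283 CPM, for Acer2 in rat 2. Acer2 had a UMI in 52 of 93 and 78 of 107 tuft barcodes, and Rgs22 in 28 of 93 and 50 of 107.

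Tuft barcodes carried transcripts of 2 peptide hormones. Sct, which encodes secretin, stood at 421 and 2864 CPM in rats 1 and 2, with a UMI in 54 of 93 and 96 of 107 tuft barcodes. In goblet barcodes Sct had a UMI in 32.1% and 35.1%, at 103 and 70.0 CPM. Cck, which encodes cholecystokinin, stood at 433 and 692 CPM, with a UMI in 53 of 93 and 92 of 107 tuft barcodes and in 3.04% and 6.76% of goblet barcodes. Both were called higher with the block (they were the 2 of 12 tested EEC markers in that direction, while 8 were called lower), and neither without it (adjusted p = 0.116 for Sct and 0.464 for Cck). Among EEC barcodes the levels were 5499 and 8973 CPM for Sct and 291 and 1215 CPM for Cck. Gip and Sst, which encode the hormone GIP and somatostatin, were called lower in tuft than in other Epcam-positive barcodes (-5.95 and -7.12, adjusted p = 0.0415 for each), with 7 Gip UMIs and 1 Sst UMI in all tuft barcodes.

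Most lists for other cell types had a negative median log2 fold change in tuft barcodes, with enterocyte transcripts present in every barcode. Fabp1, the fatty acid binding protein of enterocytes, had a UMI in all 200 tuft barcodes and made up 0.0676% to 16.1% of UMIs per barcode in rat 1 (median 2.45%) and 0.0159% to 8.67% in rat 2 (median 2.52%). In T cell-like barcodes, which should lack Fabp1, it had a UMI in 99.9% and 88.7%, with a median share of 0.402% and 0.0604%. In the sums, tuft Fabp1 stood at 41923 and 28884 CPM against 28476 and 17465 CPM in other Epcam-positive barcodes (log2 fold change 0.37, SE 0.99, adjusted p = 0.904). Of the 15 enterocyte markers tested, 0 were called without the block and 11 were lower with it (median -1.55). Summed, the list made up 8.48% of tuft and 7.87% of other UMIs in rat 1, and 4.51% and 7.92% in rat 2. The part of Fabp1 from enterocytes in these levels was not tested.

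Spink4, a secreted goblet peptide, was the 1 of 9 goblet markers called lower without the block (-4.59, SE 0.71, adjusted p = 0.0415), and all 9 were lower with it. With the block, 10.7% of all genes tested were lower. So were 9 of 10 T cell markers, 4 of 5 erythroid, 4 of 9 cycling, 2 of 5 Paneth and 3 of 10 stress genes. The counts of 11 of 80 ribosomal protein and 1 of 7 B cell, myeloid and mast cell genes lie near the share over all genes. None of these lists had a higher member. Without the block these lists had no call. The B cell, myeloid and mast cell list had a positive median (0.79). Erythroid genes summed to 0.0151% of tuft and 0.425% of other UMIs in rat 1, and to 1.65% and 1.35% in rat 2. The rule requires 0 UMIs of Cd3e and Cd3g in tuft barcodes, while the comparator keeps barcodes with them (Cd3e in 8.90% and 17.4%), so the lower T cell markers follow in part from the selection. Of 7 stem markers 2 were higher and 2 lower with the block. Of 10 Notch pathway genes 1, the ligand gene Jag2, was higher with the block and none without it. Car7, a carbonic anhydrase placed on the CHE list, was the 1 of 4 CHE markers called higher without the block, at 73.3 and 136 CPM against 1.15 and 2.33 CPM, with 2 others lower with it. The rule also requires 0 UMIs of Best4 in tuft barcodes while the comparator keeps CHEs, so the lower CHE markers follow in part from the selection.

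Some tuft barcodes held more transcripts from the lists for other cell types. Erythroid genes made up at least 1% of UMIs in 0 tuft barcodes of rat 1 and 9 of rat 2, where the highest reached 29.1%. The goblet list reached 1% in 1 and 1 tuft barcodes, the T cell list in 1 and 2, the EEC list in 0 and 10 and the CHE list in 0 and 1. The EEC list includes Sct and Cck, which most tuft barcodes carried, while Chga had 3 UMIs in all tuft barcodes of rat 2. Whether the EEC count marks another cell type was not tested. Mki67, a proliferation gene, had a UMI in 30.1% and 34.6% of tuft barcodes against 31.4% and 11.0% of other Epcam-positive barcodes. Top2a, another, had one in 4 of 93 and 1 of 107 tuft barcodes against 13.2% and 2.85% (thinned to 1000 UMIs, 1.08% and 0.935% against 4.60% and 1.23%). Thinned likewise, the share with Mki67 was 7.53% and 8.41% in tuft and 7.57% and 2.49% in the others.

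Tuft barcodes were then compared with 3 secretory or rare classes, all defined on Epcam-positive barcodes without Cd3e and Cd3g and outside the tuft class. Barcodes with 3 or more tuft markers were thus left out of them, save those with Best4. Absent tuft genes in these classes, here and above, may follow in part from that choice. CHE barcodes had a UMI of Best4 and Otop2 (6 in rat 1 and 62 in rat 2), EEC barcodes had 3 or more of 8 countable endocrine genes (21 and 6), and goblet barcodes had at least 1% of UMIs in 6 goblet genes (427 and 222). The genes of these rules were left out of the tests, and 6646 genes were tested. Against CHE barcodes 193 genes were higher (2.9%) and 158 lower (2.38%), and with the block 464 (6.98%) and 377 (5.67%). Against EEC barcodes 94 were higher (1.41%) and 144 lower (2.17%), with the block 293 (4.41%) and 243 (3.66%). Against goblet barcodes 247 were higher (3.72%) and 156 lower (2.35%), with the block 520 (7.82%) and 529 (7.96%). Without the tuft library of rat 2, where that class then has 1 library, the calls numbered 122, 128 and 168, and without that of rat 1 331, 250 and 458.

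Many tuft genes had no UMI in these classes, so their fold is given as a lower bound, taken against 3 UMIs over the class. Against CHE barcodes Hmgn3, a nucleosome-binding protein, was at least 317-fold higher, Basp1 at least 219-fold, AABR07044460.2 at least 215-fold, Pik3cg, a phosphoinositide kinase of blood cells, at least 204-fold and the keratin gene Krt23 at least 178-fold. Against EEC barcodes Plek was at least 221-fold higher, Gnat3 at least 51.1-fold, Ifitm2 at least 45.8-fold and AABR07044460.2 at least 36.1-fold. Against goblet barcodes Gnat3 was at least 2080-fold higher, AABR07044460.2 at least 1471-fold, Krt23 at least 1218-fold, Lrmp at least 846-fold and Il17rb at least 774-fold. The bounds differ between classes with the depth of each sum, so they do not rank the classes. Adjusted p-values lay between 0.000619 and 0.00972 for these increases.

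In the other direction, B3gnt3, a glycosyltransferase, and Asz1 had 0 UMIs in tuft barcodes and were at least 154-fold and 67.8-fold lower than in CHE barcodes, with Gpr4, a proton-sensing receptor, at least 64.1-fold and Ooep at least 23.5-fold lower. Reg1a stood at 2.09 and 17.8 CPM against 9198 and 20407 CPM in CHE barcodes. Against EEC barcodes Cpe, a prohormone-processing enzyme, and the granins Scg2 and Scg5 had 0 UMIs and were at least 758-fold, 629-fold and 540-fold lower, beside Sst and Gip. Against goblet barcodes Klk1b3, a kallikrein, had 2.09 and 0 CPM against 222 and 424 CPM, and 5330417C22Rik, Gsdmc, Foxa2 and Cpe were at least 9.31-fold to 18.4-fold lower.

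The signalling list was higher against all 3 classes. Of 22 tested genes of the Src-family and adaptor list, 14 were higher than in CHE, 13 than in EEC and 18 than in goblet barcodes, and none was lower (medians with bounds 3.70, 3.16 and 6.05, against 0.19, 0.24 and -0.03 over all genes tested). Of 10 taste-type genes, 5, 5 and 6 were higher, and Itpr3 alone was lower, against all 3 (log2 fold changes -3.45, -4.24 and -2.73, adjusted p = 0.0129, 0.0068 and 0.0254). Of 10 eicosanoid genes, 6, 2 and 6 were higher, and 1 was lower against goblet barcodes.

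Transcription factors divided the classes differently. Of 18 tested, 4 were higher and 2 lower than in CHE, 3 higher than in EEC and 7 higher and 2 lower than in goblet barcodes. Spib stood at 522 and 1864 CPM in CHE against 314 and 883 CPM in tuft barcodes (-1.32, adjusted p = 0.457), and at 0 UMIs in EEC barcodes, so that tuft was at least 35.0-fold higher there. Prox1 did not pass against CHE (-0.66, adjusted p = 0.614) or EEC barcodes (0.69, 0.716) and was higher than in goblet barcodes (4.25, 0.0018). Hmx2 was at 0 UMIs in all 3 classes, and tuft was at least 48.5-fold, 8.14-fold and 332-fold higher. Hes1 was lower than in CHE barcodes (-4.44, adjusted p = 0.0083) and Atoh1 lower than in goblet barcodes (-5.83, 0.0023).

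Altogether 52 of the 6646 genes tested were higher in tuft than in each of the 3 classes. Of the 52, 23 were on the lists, and no share of listed genes over all genes tested is given here. Against other Epcam-positive barcodes, 25 of the 52 were also called higher without the block, where 0.909% of all genes were. With the block all 52 were, where 7.68% of all genes were. That comparator contains the 3 classes and the tuft sums are the same, so these calls are not independent. Among the most abundant of the 52 were Plek (1359 and 5949 CPM), Hebp1, a haem-binding protein (1972 and 2501 CPM), Ptpn6, the adaptor gene Fyb1 (588 and 1880 CPM) and Ifitm2 (1133 and 720 CPM). AABR07044460.2, Lrmp, Grasp, Hmx2 and Itprid1 had 0 UMIs in CHE, EEC and goblet barcodes of both rats. Promoter windows of 250 bases before to 50 after the start (RefSeq, GRCr8) were matched for 38 of the 52. The octamer letters ATGCAAAT, searched on both strands, were in 0 of them. They were in 57 of 5173 promoters of the genes tested (1.10%) and in 595 of 33469 promoters in all (1.78%). The Ets-type letters GAGGAAGT were in 1, that of Pik3cg, against 2.69% of the genes tested and 2.42% in all. With 38 promoters, a count of 0 cannot show a lack of the octamer letters.

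Shallow and deep tuft barcodes were compared at the study's floor of 5000 UMIs. No gene of 3152 tested was called (0.0%; edgeR), with 140 at an unadjusted p under 0.05, 18 called by DESeq2 and 0 when the rat was a block. In rat 2 the tuft lists differed little, with 0.600% of UMIs in taste-type genes in 34 shallow and 0.606% in 73 deep barcodes. In rat 1 the 76 shallow barcodes had 0.517% and the 17 deep ones 0.172%, the signalling list stood at 1.06% and 0.251%, and the enterocyte list stood at 4.61% and 12.4%. Of those 17 deep barcodes, Scrublet called 7 as doublets. In rat 2 it marked 2 of 5523 barcodes and so did not work there, and the part of doublets in these levels was not tested.

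**Figure D5:**
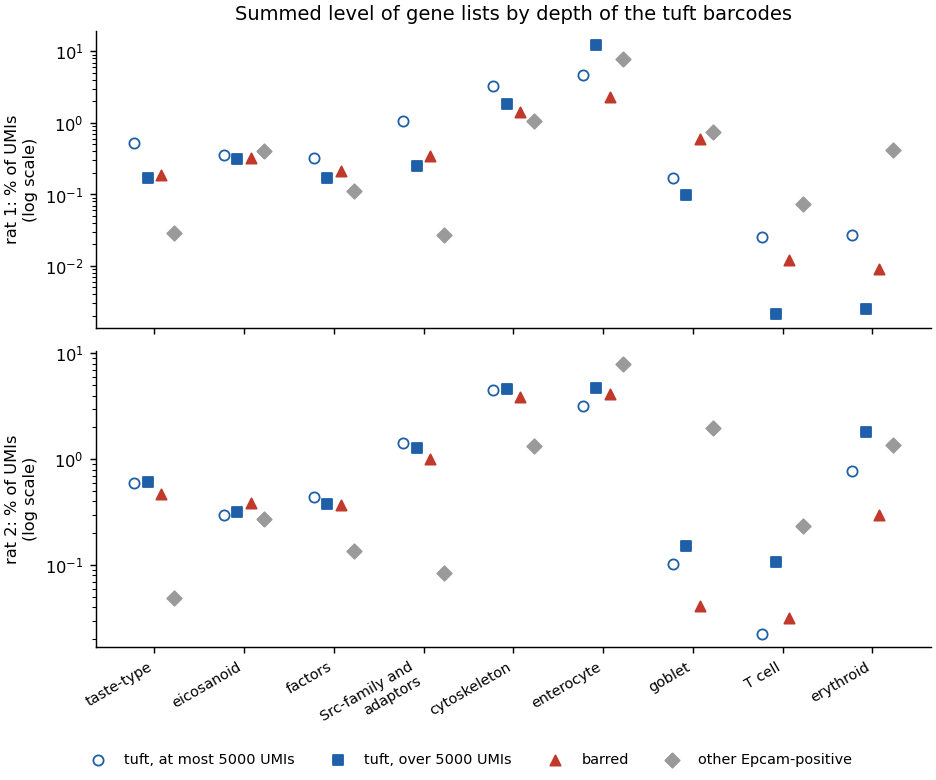
Summed level of gene lists as percent of UMIs (log axis) in tuft barcodes of at most 5000 UMIs, tuft barcodes of over 5000 UMIs, barred barcodes and other Epcam-positive barcodes, per rat. In rat 1 deep tuft barcodes lie below shallow ones for the taste-type list (0.172% against 0.517%) and above them for enterocyte markers (12.4% against 4.61%), and in rat 2 the taste-type points lie close together (0.606% and 0.600%).

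Cd74 and RT1-Db1, chosen after their values were seen from the genes with the lowest p between depths, passed no threshold. Cd74, the invariant chain of MHC class II, had 10 UMIs in 9 of 76 shallow tuft barcodes of rat 1 and 284 UMIs in 8 of 17 deep ones, and 4 UMIs in 4 of 34 and 332 UMIs in 18 of 73 in rat 2. Thinned to 1000 UMIs, the share with Cd74 was 6.58% (shallow) and 29.4% (deep) in rat 1, and 5.88% and 6.85% in rat 2. Its log2 fold change of shallow over deep was -4.61 (SE 0.89, adjusted p = 0.314), and that of RT1-Db1, a class II beta chain, -5.06 (SE 0.88, adjusted p = 0.286). In other Epcam-positive barcodes Cd74 had a UMI in 47.1% and 44.5%.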

How the data were processed

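Epithelium of the proximal jejunum of 2 rats was profiled with 10x 3′ v3 chemistry, 1 library per rat. The authors aligned reads to rn6 and deposited UMI counts per gene and barcode from Cell Ranger (v3.1.0 for rat 1 and v5.0.1 for rat 2, per the file headers). The deposited matrices held 32883 genes and no normalization, and the lowest barcode total was 500 UMIs. Sh2d6 and Insm1 were not analysed here.

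Barcodes were selected as stated above. Members and gene lists were chosen with earlier results of these data known. UMIs were summed per rat and class and tested with edgeR (v4.0.16; TMM, filterByExpr, quasi-likelihood F-test, Benjamini-Hochberg adjusted p of at most 0.05) without a rat term, and DESeq2 (v1.42.0) was an alternative. Scripts were tested on simulated data. Classes came from the same rats, so replicate numbers pair the sums, and the correlation of their deviations from class means was 0.366 for tuft and other Epcam-positive barcodes and 0.131 to 0.440 among the rare classes. With 2 rats, p-values without the block measure the spread between 2 sums per class, which includes technical spread. With the block, differences between the rats are removed and fewer degrees of freedom remain. Small p-values there do not stand for replication in more than 2 rats. Lower bounds for folds used 3 UMIs over a class. Some shares are also given after thinning barcodes to 1000 UMIs, and all others are unthinned. Doublets were called with Scrublet (scanpy v1.11.5), which marked 3.99% of barcodes in rat 1 and 0.0362% in rat 2, and were not removed.

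Genes named were all markers of the rule, the largest called members of each list, every tested transcription factor and taste-type gene, the 15 largest increases and 10 largest decreases on no list against other Epcam-positive barcodes with at least 5 UMIs per rat in the higher class and the same direction in both rats (no such decrease was called), and 5 in each direction for the other comparisons. Some genes that this rule would name are not reported here. Alternatives changed the normalization, the filter on low counts, the barcode limits, the comparator and the replicates.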

Additional observations from a re-analysis of the deposited data

How the results depend on the processing

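The number of genes called between tuft and other Epcam-positive barcodes depended on the fit. Against 108 genes, DESeq2 called 652, scaling by total UMIs without TMM 208, testing without the filter on low counts 877 and the rat as a block 2121, which included all 108. The count was 0 with mitochondrial genes left out, with barcodes limited to over 5000 UMIs and under 5800 genes, with at most 20% mitochondrial UMIs, and without the tuft library of either rat (0 to 0). Among alternatives chosen after seeing the data, 4 genes passed with Cd3g allowed in tuft barcodes and 256 without barcodes of 3 or more markers in the comparator.

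Against CHE barcodes the 351 calls became 705 without the filter, 841 with the block, 167 over 5000 UMIs, and 122 to 331 without 1 tuft library. Against EEC barcodes the 238 calls became 542, 536, 129, and 128 to 250. Against goblet barcodes the 403 calls became 847, 1049, 207, and 168 to 458. The lone tuft sum was then assumed to vary like the other classes. Between shallow and deep tuft barcodes 0 calls became 18 with DESeq2, 6 without TMM and 63 without the filter. Between barred and tuft barcodes, a comparison added after seeing the data, 0 became 25 without the filter and 104 with the block. The share of tuft barcodes was 0.284% and 3.27% with the study's limits, 1.56% and 3.31% with Cd3g allowed (added after seeing the data), and 0.773% and 1.30% of all barcodes.

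Across 343 results for named and listed genes, 4800 values under alternatives held 4276 with the same direction and side of the threshold, 289 no longer past it, 235 newly past it and 0 reversed. The cause of these changes was not tested. Genes under 3 UMIs in a class (6.28 CPM in tuft barcodes of rat 1 and 3.81 CPM in rat 2) could not be told from 0 at this depth.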
